A study of Mus musculus with 4 samples.

Results

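The ATP-binding cassette (ABC) transporter genes of subfamilies A to G were followed in dendritic cells of the mouse spleen. Members were the probe sets whose only gene symbol in the platform annotation begins with Abca to Abcg and a number. They came to 92 probe sets of 45 genes, among 18193 genes with a probe set of their own on the array. An Affymetrix mouse whole-genome array was hybridized with RNA of CD8α+ dendritic cells (2 arrays) and of CD8α− dendritic cells (2 arrays), both from untreated C57BL/6 spleen as far as the labels go. No age, sex, sorting scheme or number of animals is given in the sources used here, and no source says whether 1 animal or several stood behind a pair of arrays. The p-values therefore cover the spread among these arrays alone, which could be purely technical.

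ABC proteins bind ATP through a paired nucleotide-binding domain. Most are membrane pumps: full transporters carry the whole pump in 1 chain, and shorter members work as dimers. Subfamily A and much of G move sterols and phospholipids, subfamilies B and C hold the drug and organic anion pumps, D serves the peroxisome, and the E and F proteins lack membrane domains and work at the ribosome. Splenic CD8α+ cells are conventional dendritic cells of type 1 (cDC1), which engulf apoptotic cells, while CD8α− cells are mostly of type 2 (cDC2). In dendritic cells the family is known best for antigen peptide transport by Tap1 and Tap2, ABC proteins named outside the Abc scheme, and for lipid mediator export during migration.

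The labels were checked on marker genes first. On each of the 5 Cd8a probe sets both CD8α+ arrays exceeded both CD8α− arrays. Of the markers tested, 8 of 9 cDC1 genes (Cd8a itself among them) were higher and 6 of 7 cDC2 genes lower in CD8α+ cells at an unadjusted limma p under 0.05. Among all tested genes 7.13% were higher and 8.82% lower. Batf3, the cDC1 gene not called, had a log2 difference of -0.27, and Sirpa, the cDC2 gene not called, one of -1.81. CD8α− replicate 2 stood apart: its deposited median signal was 17.4 against 22.9 to 35.1 on the other arrays. Its ratio of the 3′ to the 5′ Gapdh control was 10.7, against 1.53 to 2.02 elsewhere. The same ratio for the beta-actin control was 0.759 on that array, against 1.62 to 1.69 elsewhere, so the controls moved in opposite directions. The log2 signals of CD8α− replicate 2 correlated with those of CD8α− replicate 1 at r = 0.835 across tested probe sets, against 0.955 within the CD8α+ pair.

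Signals below are quantile-normalized MAS5 values in arbitrary units, and a difference is mean log2 signal in CD8α+ arrays minus that in CD8α− arrays, ± its standard error in limma (n = 2 arrays each). Background is the highest Bacillus control of each array, which lies between 21.8 and 34.5 after normalization. A difference that rests on arrays not above background depends on the floor set for dim signals and is not an exact size. Signals of different genes are read by different probes and are not set against each other. In bulk RNA, fewer cells of a type and less RNA per cell cannot be told apart.

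Of the 45 genes, 23 had at least 1 probe set bright enough to be tested, and 42 of the 92 probe sets were tested. The other 22 genes are described at the end of the account by role. No ABC gene passed an adjusted p of 0.05 (Benjamini-Hochberg over 22519 probe sets, limma), and 0 of all tested probe sets did, with 15.5% of them under an unadjusted p of 0.05. At an unadjusted p under 0.05, 4 of the 23 genes were lower in CD8α+ cells, 0 were higher and 19 were not called. The 4 are 17.4% of the tested members. Over all 10531 tested genes 8.82% were lower and 7.13% higher, or 1680 genes in either direction, so the share of members called in all lies near the background. The split of all genes moved with the scaling: 1111 were higher and 250 lower on the deposited scale, 3032 and 447 with median centring, and 627 and 1765 with a common trimmed mean. Both arrays of a group lay beyond both of the other in 12 ABC genes, 9 lower and 3 higher in CD8α+ cells. This is 52.2% of the 23, against 53.9% of all tested genes (28.3% lower and 25.6% higher). The median difference of the family was -0.29, against -0.02 over all tested genes; on the deposited scale both medians were positive, 0.24 and 0.67.

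**Figure D1:**
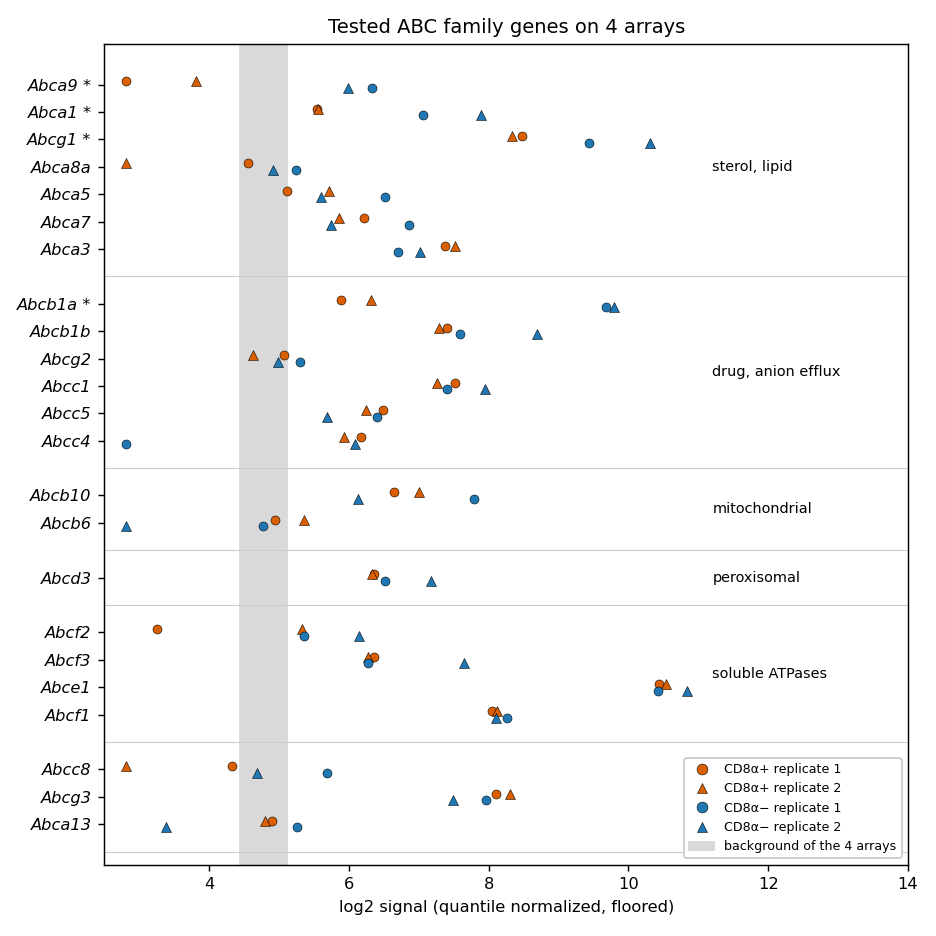
Log2 signal (x axis, quantile normalized and floored) of the 23 tested ABC genes (rows, grouped by role) on the 4 arrays; orange marks CD8α+ arrays, blue CD8α− arrays, circles replicate 1 and triangles replicate 2. An asterisk marks the 4 genes with an unadjusted p under 0.05 and the grey band spans the background of the 4 arrays; in these 4 genes both orange points lie left of both blue ones.

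Sterol and lipid transporters held 3 of the 4 genes called. Of 7 tested members, 3 were lower in CD8α+ cells, 0 higher and 4 not called. Over all tested genes 8.82% were lower. Among the 3, Abca9 rests on CD8α+ arrays not above background. The median difference of -1.40 is that of Abca8a, which was above background on only 1 array. Abca1, which loads cell cholesterol and phospholipid onto lipid-poor apolipoprotein A-I, read 46.6 and 47.1 in CD8α+ cells, against 134 and 238 in CD8α− cells. The CD8α+ arrays nearly coincide and the groups do not overlap. The difference was -1.93 ± 0.41, or 3.81-fold (unadjusted p = 0.00707, adjusted p = 0.184, limma). Abcg1, a partner exporter that passes sterol on to mature high-density lipoprotein, read 355 and 323 in CD8α+ cells, against 689 and 1273 in CD8α− cells. Here too both CD8α+ arrays were lower, by -1.47 ± 0.43 (unadjusted p = 0.0217, adjusted p = 0.253, limma), although another Abcg1 probe set, near background, read -0.09 ± 0.45. Without CD8α+ replicate 1 or 2 the differences were about as large (-1.92 or -1.94 for Abca1, -1.54 or -1.40 for Abcg1), but the unadjusted limma p was 0.0539 or 0.0525 for Abca1 and 0.104 or 0.129 for Abcg1. Without CD8α− replicate 1 or 2 the differences were -2.35 or -1.51 for Abca1 and -1.91 or -1.03 for Abcg1. With a lone CD8α− array the fit takes its spread from the closer CD8α+ pair alone, so no p is read there. The other 2 Abca1 probe sets were not tested and were above background on no array. On the deposited scale and with median centring Abcg1 was not called either, at -0.53 and -0.53, where the median of all genes moved to 0.67 and 0.69.

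Abca9 was lower in CD8α+ cells as well (unadjusted p = 0.00253, adjusted p = 0.139, limma). It belongs to a subgroup of Abca genes that lie side by side on chromosome 11, in the RefSeq order Abca8b, Abca8a, Abca9, Abca6 and Abca5. Its signals were 2.19 and 14.1 in CD8α+ cells, against 80.7 and 63.6 in CD8α− cells. Neither CD8α+ array was above background while both CD8α− arrays were, so the fold is at least 2.76 and the fitted difference of -2.85 ± 0.47 depends on the floor. Its other probe set was not tested, was above background on 1 CD8α+ array only and did not separate the groups. Among the neighbours, Abca8a read 23.4 and 5.71 in CD8α+ cells, against 38.0 and 30.2 in CD8α− cells, above background on only 1 array (-1.40 ± 0.67, not called). Abca6 was not tested and was above background on no array, with 7.26 and 15.4 in CD8α+ cells, against 27.0 and 31.1 in CD8α− cells. Abca5, a lysosomal member, was not called (-0.64 ± 0.48), and Abca8b was not above background on any array. Of the 3 neighbours that were tested, Abca9 is the only one called.

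The remaining lipid members ran in different directions. Abca3, which fills the lamellar bodies of lung cells with surfactant lipid, read 166 and 183 in CD8α+ cells, against 104 and 129 in CD8α− cells. The groups do not overlap, but the difference of 0.59 ± 0.32 was not called (unadjusted p = 0.136, limma). Abca7, linked to phagocytosis and phospholipid handling, read 74.3 and 58.1 in CD8α+ cells, against 116 and 53.7 in CD8α− cells (-0.26 ± 0.49). The CD8α− arrays enclose the CD8α+ arrays, and no direction is read from Abca7.

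Partner genes of sterol efflux were read from a list of 16. Of the 14 tested, 2 were lower in CD8α+ cells, 1 higher and 11 not called, and the list median was 0.25. Over all tested genes 8.82% were lower and 7.13% higher. Pltp, which transfers phospholipid between lipoproteins, read 45.2 and 54.5 in CD8α+ cells, against 485 and 681 in CD8α− cells (-3.53 ± 0.36, unadjusted p = 0.000322, adjusted p = 0.116, limma). Apolipoprotein E (Apoe), an acceptor of exported cholesterol, read 72.8 and 115 in CD8α+ cells, against 429 and 314 in CD8α− cells (4.01-fold lower, unadjusted p = 0.00569, limma). Among the 14 tested partners the groups did not overlap in 5 genes higher and 3 lower in CD8α+ cells. Pltp and Apoe stood on the same side as Abca1 and Abcg1. None of these 4 called genes overlapped between groups, and 53.9% of all tested genes did not overlap either. Scarb1, the high-density lipoprotein receptor SR-BI that moves cholesterol along its gradient, stood on the other side with 288 and 319 in CD8α+ cells, against 94.5 and 75.3 in CD8α− cells (1.84 ± 0.33, 3.59-fold, unadjusted p = 0.0034, limma). Abca1, Abcg1, Apoe, Pltp, Mylip, Srebf1 and Lpcat3 are known as targets of the liver X receptors. Mylip (0.41 ± 0.37), Srebf1 (0.37 ± 0.36) and Lpcat3 (-0.24 ± 0.49) were not called. Of the liver X receptor genes, Nr1h3 alone was among the tested partners. It was near background (29.0 and 18.7 in CD8α+ cells, against 54.6 and 16.9 in CD8α− cells) and was not called (-0.38 ± 0.67).

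**Figure D2:**
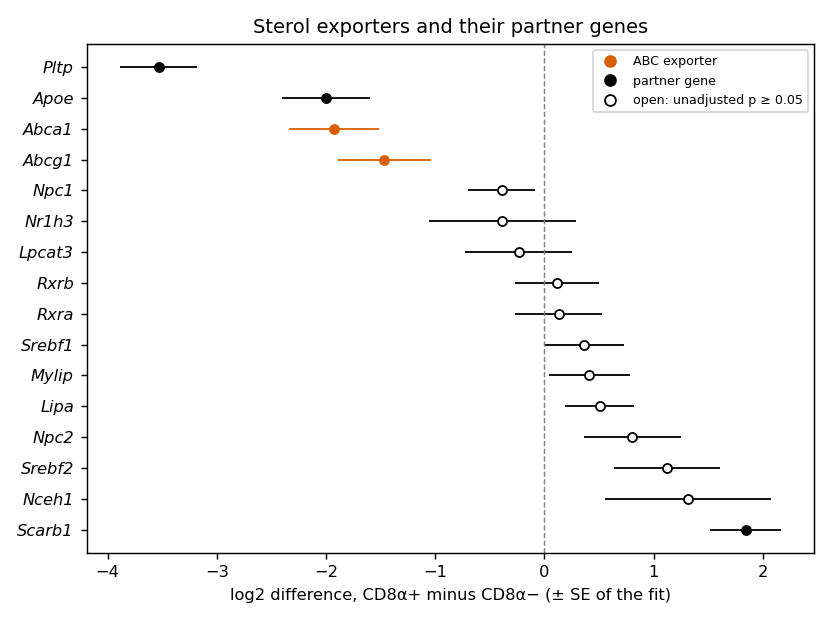
Log2 difference, CD8α+ minus CD8α− cells, ± standard error of the fit (n = 2 arrays each) for Abca1 and Abcg1 (orange) and the 14 tested partner genes of sterol efflux (black); filled points have an unadjusted p under 0.05. Pltp, Apoe, Abca1 and Abcg1 lie together below -1.4 and Scarb1 alone is filled above 0.

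Macrophages also express Abca1, Abcg1 and Apoe, and markers of these and other cell types were read beside them. Of 7 tested red pulp macrophage markers, 3 were lower in CD8α+ cells (Adgre1, C1qb and Spic) and 1 was higher (Vcam1). The summed signal of the 11 markers with a probe set was 1027 and 1179 in CD8α+ cells, against 1535 and 2090 in CD8α− cells, and C1qb was above background on neither CD8α+ array but on both CD8α− arrays. C1qa was above background on 1 CD8α− array only, and C1qc on none of the 4 arrays. For monocytes, 3 of 6 tested markers were lower and 0 higher, with sums of 700 and 692 in CD8α+ cells, against 1297 and 1627 in CD8α− cells; Cx3cr1 and Fcgr1 were above background on neither CD8α+ array and on 1 CD8α− array each. Neutrophil markers were lower too, in 4 of 6 tested with 0 higher (median -1.09), and summed to 6974 and 7617 in CD8α+ cells, against 14553 and 11820 in CD8α− cells. Of 7 plasmacytoid dendritic cell markers, 2 were lower (Spib and Tcf4) and 0 higher, with sums of 1029 and 1208 in CD8α+ cells, against 1780 and 2529 in CD8α− cells. The rest were not called: Ccr9 (2.21 ± 1.12), Siglech (0.66 ± 0.52) and Ly6d (0.05 ± 0.37) lay above 0, and Bst2 (-0.77) and Klk1 (-1.34) below. Each sum is carried by its brightest probe sets, as the neutrophil sum by S100a8 and S100a9, and is no measure of cell content. Over all tested genes 8.82% were lower and 7.13% higher. The part of the cell types read here in the sterol exporter differences was not tested.

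Abcb1a, a drug efflux pump of the P-glycoprotein type, led the drug and organic anion pumps. It read 59.4 and 79.6 in CD8α+ cells, against 823 and 888 in CD8α− cells. The CD8α− arrays lie close together and far above the CD8α+ arrays, which are themselves above background. The difference was -3.64 ± 0.34, or 12.4-fold (unadjusted p = 0.000222, adjusted p = 0.116, limma), which ranked 16 among the 10531 genes by p. Its other probe set gave the same direction, with 56.3 and 45.5 in CD8α+ cells, against 307 and 311 in CD8α− cells (-2.61 ± 0.32). The signals as deposited were 70.3 and 101 in CD8α+ cells, against 881 and 427 in CD8α− cells, so the groups were apart before normalization as well. The adjusted p of Abcb1a was under 0.05 with an intensity trend, with median centring and with the stricter filter. In these settings 39, 203 and 24 genes in all passed. In the other settings that kept all arrays Abcb1a did not pass.

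The closest relative was not called. Mouse P-glycoprotein is encoded by Abcb1a and Abcb1b, which neighbour each other on chromosome 5 with Abcb4, a phospholipid floppase, beside them. Abcb1b read 170 and 156 in CD8α+ cells, against 192 and 412 in CD8α− cells (-0.79 ± 0.48, unadjusted p = 0.165, limma). Here the gap between the CD8α− arrays, 2.14-fold, exceeds that between CD8α+ cells and CD8α− replicate 1, and the gene was not called. Abcb4 was not tested, at 6.27 and 31.4 in CD8α+ cells, against 37.0 and 1.66 in CD8α− cells. Whether the Abcb1a and Abcb1b differences differ from each other was not tested.

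The promoters of the called genes, and of Abcb1b as the uncalled neighbour, are shown for the letters around their starts. They are the RefSeq windows from 250 bases before to 50 after the start in GRCm38.p6: Abca1 at chr4:53159846-53160145 (minus strand), Abca9 at chr11:110168104-110168403 (minus), Abcb1a at chr5:8566841-8567140 (plus) and Abcb1b at chr5:8797897-8798196 (plus). Such a window was at hand for 20 of the 23 tested genes, and not for Abcg1. Capitals mark 4 short motifs searched on both strands. The E-box was searched as the letters CACGTG, a site read by basic helix-loop-helix factors. The GC box, which Sp-type factors read, was searched as GGGCGG. The box named for its letters CCAAT is read by nuclear factor Y, and the TATA box, where the basal machinery binds, was searched as TATAAA.
Abca1: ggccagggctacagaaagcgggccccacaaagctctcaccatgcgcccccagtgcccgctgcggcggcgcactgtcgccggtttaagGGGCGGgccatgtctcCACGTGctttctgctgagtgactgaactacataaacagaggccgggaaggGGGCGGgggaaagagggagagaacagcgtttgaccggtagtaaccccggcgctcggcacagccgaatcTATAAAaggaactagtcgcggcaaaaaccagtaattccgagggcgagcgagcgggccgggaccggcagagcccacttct
Abca9: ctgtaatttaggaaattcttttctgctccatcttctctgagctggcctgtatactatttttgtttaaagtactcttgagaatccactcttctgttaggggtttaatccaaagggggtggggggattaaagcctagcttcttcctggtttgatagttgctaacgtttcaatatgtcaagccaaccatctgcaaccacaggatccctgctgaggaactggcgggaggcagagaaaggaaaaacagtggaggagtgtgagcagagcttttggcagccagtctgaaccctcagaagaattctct
Abcb1a: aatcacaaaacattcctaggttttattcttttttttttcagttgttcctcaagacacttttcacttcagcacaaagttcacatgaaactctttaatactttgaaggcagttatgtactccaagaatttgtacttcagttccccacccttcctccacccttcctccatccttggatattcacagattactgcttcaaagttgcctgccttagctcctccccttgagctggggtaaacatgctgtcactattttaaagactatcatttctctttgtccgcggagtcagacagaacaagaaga
Abcb1b: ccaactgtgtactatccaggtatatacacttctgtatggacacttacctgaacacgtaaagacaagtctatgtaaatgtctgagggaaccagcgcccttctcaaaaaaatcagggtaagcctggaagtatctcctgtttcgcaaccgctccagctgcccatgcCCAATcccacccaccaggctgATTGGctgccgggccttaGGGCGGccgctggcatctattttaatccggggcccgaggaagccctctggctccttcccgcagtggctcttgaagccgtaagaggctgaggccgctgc

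Abca1 holds 1 E-box, 2 GC boxes and 1 TATA box, and Abcb1b holds 2 CCAAT boxes, 1 on each strand, and 1 GC box. No marked motif overlaps another, and Abca9 and Abcb1a hold none of the 4 in these windows. Among 32851 windows of this kind, 7.15% hold the E-box, 35.7% the GC box, 37.4% the CCAAT box and 13.6% the TATA box. A match is a run of letters only, and the arrays say nothing of what binds there.

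P-glycoprotein is known to be expressed by natural killer (NK) cells, and some markers of these cells were lower in CD8α+ cells as well. Of 12 tested NK markers, 6 were lower and 0 higher, with a median difference of -1.84. Over all tested genes 8.82% were lower. Klrk1 (0.50 ± 0.32) and Prf1 (0.14 ± 0.49) lay on the other side and were not called. The summed signal of the 12 markers was 1215 and 1431 in CD8α+ cells, against 4725 and 3089 in CD8α− cells. On CD8α− replicate 1 the sum is carried by Klrd1 (1637) and Gzma (1554), and Gzma read 274 on replicate 2. Such a sum is no measure of cell content. Each of the 12 was above background on at least 1 CD8α+ array. T cell markers, of which 0 of 8 tested were called in either direction, summed to 574 and 769 in CD8α+ cells, against 597 and 632 in CD8α− cells. The part of NK cells in the Abcb1a difference was not tested.

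None of the other 5 tested members of the drug and anion group was called. Abcc1, which exports leukotriene C4 and glutathione conjugates, read 184 and 153 in CD8α+ cells, against 169 and 248 in CD8α− cells (-0.29 ± 0.37), and its other tested probe set gave -0.09. Abcc4, a pump of cyclic nucleotides and prostaglandins, read 72.2 and 61.1 in CD8α+ cells, against 6.88 and 67.9 in CD8α− cells. CD8α− replicate 1 was not above background on Abcc4 and lay under the floor, so the fitted 1.61 ± 1.14 is not an exact size. Without that array the difference was -0.03, and no direction is given. Abcg2, which exports porphyrins and many drugs, was above background on 3 arrays but close to it (33.5 and 24.8 in CD8α+ cells, against 39.2 and 31.8 in CD8α− cells; -0.29 ± 0.35). In the leukotriene list, 1 of 3 tested genes was lower in CD8α+ cells and 0 higher: Lta4h, leukotriene A4 hydrolase, read 157 and 139, against 415 and 273 in CD8α− cells (-1.18 ± 0.37, unadjusted p = 0.0277, limma). Alox5ap, the activating protein of 5-lipoxygenase, was not called (0.39 ± 0.31). The share lower over all tested genes was 8.82%.

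The dimeric transporters of the mitochondrion and peroxisome gave no call. Abcb10, an inner mitochondrial membrane protein linked to heme synthesis, read 100 and 128 in CD8α+ cells, against 221 and 70.3 in CD8α− cells (-0.14 ± 0.64). Its CD8α+ arrays fall between the CD8α− arrays. Abcb6, linked to porphyrin transport, read 30.7 and 41.1 in CD8α+ cells, against 27.2 and 1.86 in CD8α− cells, above background only on CD8α+ replicate 2 (1.37 ± 0.74). Abcd3, a peroxisomal importer of fatty acyl and bile acid intermediates, read 81.8 and 80.5 in CD8α+ cells, against 91.5 and 144 in CD8α− cells. Its groups do not overlap, but the gap within the CD8α− pair is wider than the gap between groups (-0.50 ± 0.37, unadjusted p = 0.244, limma). In the iron-sulfur and heme list 2 of 10 tested genes were lower and 0 higher, namely the mitochondrial iron carrier Slc25a28 (-1.21 ± 0.35) and the first heme synthesis enzyme Alas1 (-1.19 ± 0.37). The peroxisomal list had 1 of 8 higher, the thioesterase Acot8 (0.87 ± 0.32), and 0 lower. Over all tested genes 8.82% were lower and 7.13% higher.

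The soluble members of subfamilies E and F, which have no membrane domain, were all 4 tested and none was called. Abce1, the ribosome recycling factor, read 1381 and 1485 in CD8α+ cells, against 1379 and 1822 in CD8α− cells (-0.15 ± 0.33). Abcf1, which acts with initiation factor eIF2, read 264 and 278 in CD8α+ cells, against 307 and 276 in CD8α− cells (-0.10 ± 0.31). For both the CD8α+ arrays lie within or beside the CD8α− range, with differences smaller than their standard errors. Abcf3 (-0.64 ± 0.55) was pulled by CD8α− replicate 2, at 200 against 77.1 on replicate 1. Abcf2 (-1.46 ± 0.80) was pulled by CD8α+ replicate 1, at 9.53 and not above background, against 40.3 on CD8α+ replicate 2. In the list of ribosome recycling and translation control, 0 of 6 tested genes were called.

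None of the 3 tested members in the remaining role group was called. Abcg3, a rodent member of subfamily G, was above background on all arrays and read 275 and 317 in CD8α+ cells, against 249 and 180 in CD8α− cells. Its groups do not overlap, yet 0.48 ± 0.35 was not called (unadjusted p = 0.234, limma). Abcc8, the sulfonylurea receptor of pancreatic potassium channels, was above background on only 1 array, CD8α− replicate 1 (-1.62 ± 0.68, not called), and Abca13 was above it on 1 array of each group (0.54 ± 0.70). The family members with other symbols, Tap1 (974 and 1076 in CD8α+ cells, against 705 and 415 in CD8α− cells; 0.92 ± 0.40) and Tap2 (0.26 ± 0.38), were not called, and Cftr was not tested.

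Among the 22 genes with no tested probe set, 14 were above background on no array: Abca2, Abca4, Abca6, Abca8b, Abca12, Abca14, Abca16, Abcc2, Abcc6, Abcc9, Abcc12, Abcd2, Abcg5 and Abcg8. The other 8 were above it on at least 1 array, and none had a probe set above it on both arrays of a group: Abcb4, Abcb8, Abcb9, Abcb11, Abcc3, Abcc10, Abcd4 and Abcg4. The canalicular bile pumps Abcb11 and Abcc2 and the sterol pair Abcg5 and Abcg8 of liver and gut belong here. Nothing is said of their presence, since a dim probe set bounds the signal of that probe set only.

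Of the 11 genes with several tested probe sets, 5 had probe sets that disagreed, meaning opposite signs together with a gap over 1 log2 unit or with an unadjusted p under 0.05. Over all 4619 genes with several tested probe sets the share was 33.4%. Abcc5, a cyclic nucleotide pump, disagreed most, with 5 tested probe sets among 10. The one that represents it read 89.5 and 75.6 in CD8α+ cells, against 84.9 and 51.4 in CD8α− cells (0.32 ± 0.40). Another was higher, with 56.8 and 47.2 in CD8α+ cells, against 14.6 and 3.21 in CD8α− cells (2.36 ± 0.48, at least 1.66-fold, unadjusted p = 0.00577, limma). This probe set, whose name ends in _x_at, may cross-hybridize, and neither CD8α− array was above background on it. Yet another was lower, with 18.3 and 20.9 in CD8α+ cells, not above background, against 47.0 and 49.6 in CD8α− cells (-1.31 ± 0.31, at least 1.86-fold, unadjusted p = 0.0107, limma). No direction is given for Abcc5.

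The other 4 genes that disagreed were Abca3, Abce1, Abcf1 and Abcf2. For Abce1 1 probe set read 81.8 and 74.3 in CD8α+ cells, against 39.4 and 5.91 in CD8α− cells (2.23 ± 0.89), where the representative read -0.15 and the remaining one 0.36. On Abcf1, 4 of 5 tested probe sets lay between -0.29 and -0.03 and the fifth at 0.92 ± 0.97, through a low signal of 25.1 on CD8α− replicate 2. Abca3 had 2 probe sets higher (0.59 and 0.94) and 1 near background lower (-0.58). Abcf2 had its representative at -1.46 and the other at 0.23. In contrast, the probe sets of Abcb1a, Abcf3, Abcc1, Abcg1 and Abcg3 had 1 sign per gene, and Abcb10 had -0.14 and 0.00.

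**Figure D3:**
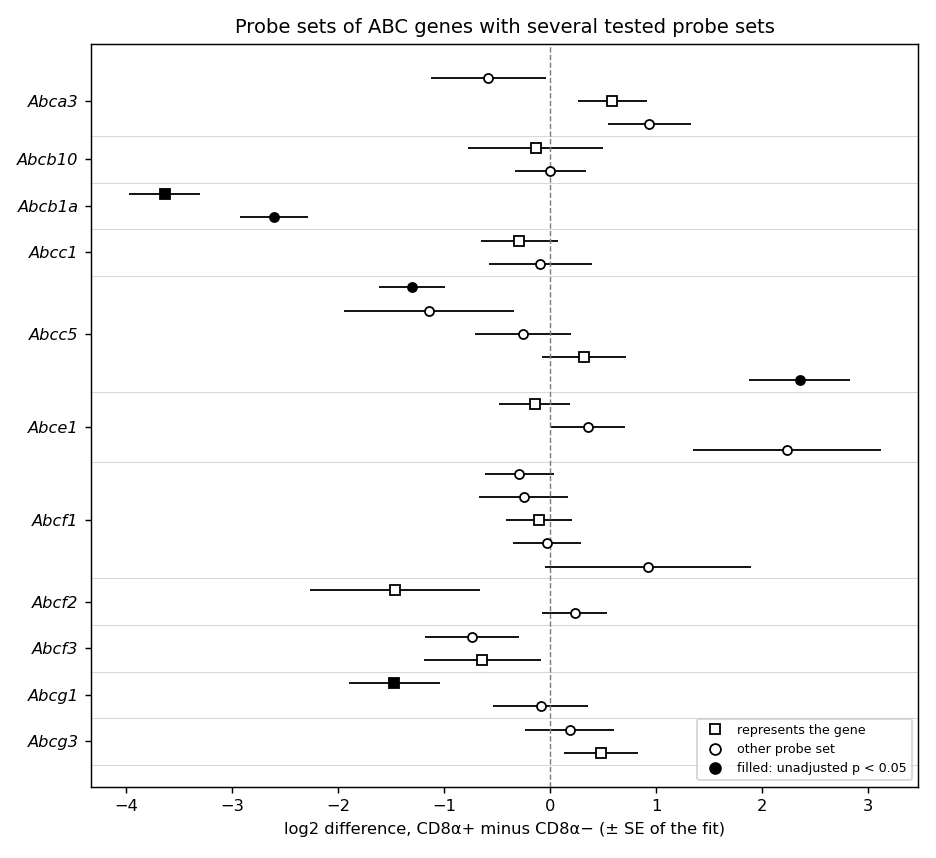
Log2 difference, CD8α+ minus CD8α− cells, ± standard error of the fit (n = 2 arrays each) of each tested probe set in the 11 ABC genes with several; squares represent the gene and filled points have an unadjusted p under 0.05. Both Abcb1a probe sets lie below -2.6, while Abcc5 spreads between -1.31 and 2.36.

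Since the CD8α− arrays differed, each gene was also set against each of them alone. In 16 of the 23 genes (69.6%) the CD8α+ mean lay on the same side of both CD8α− arrays, against 66.1% of all tested genes. The 4 called genes are among the 16. Abcb1a differed by -3.58 from CD8α− replicate 1 and by -3.69 from replicate 2, and Abca9, with its CD8α+ arrays under background, by -3.02 and -2.68. Abca1 (-1.51 and -2.35) and Abcg1 (-1.03 and -1.91) were farther from replicate 2, the array with the high Gapdh ratio, than from replicate 1. The signs were opposite in 7 genes: Abca7, Abca13, Abcb10, Abcc4, Abcc5, Abce1 and Abcf3. Within the CD8α+ pair 4 ABC genes differed over 2-fold, and within the CD8α− pair 7. The median gap of ABC genes was 0.24 log2 units in the CD8α+ pair (0.19 over all tested genes) and 0.79 in the CD8α− pair (0.66).

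**Figure D4:**
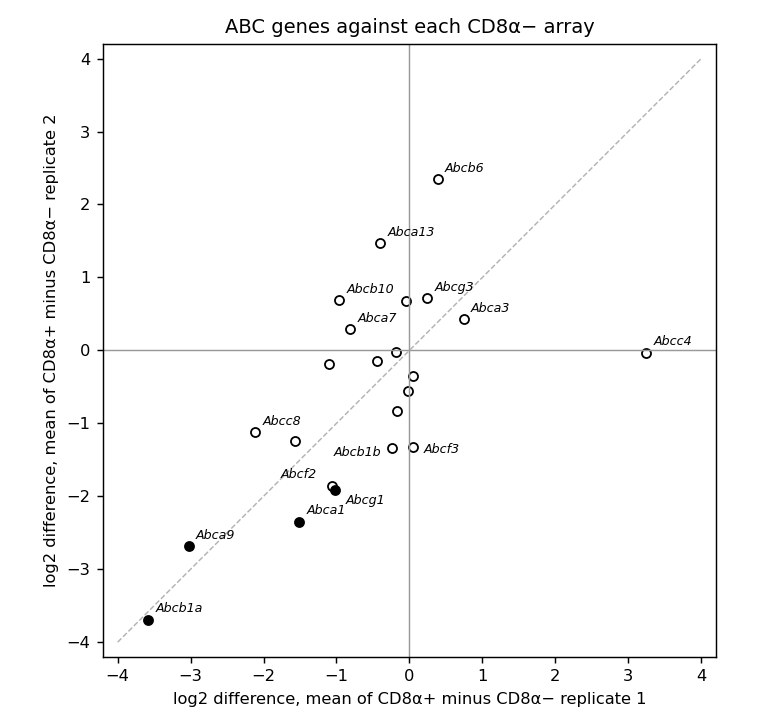
Log2 difference of the CD8α+ mean from CD8α− replicate 1 (x axis) and from CD8α− replicate 2 (y axis) for the 23 tested ABC genes; filled points have an unadjusted p under 0.05 in the fit of all arrays and the dashed line marks equal differences. Abcb1a and Abca9 lie near the line, Abca1 and Abcg1 below it, and 7 genes lie in quadrants of opposite sign.

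**Figure D5:**
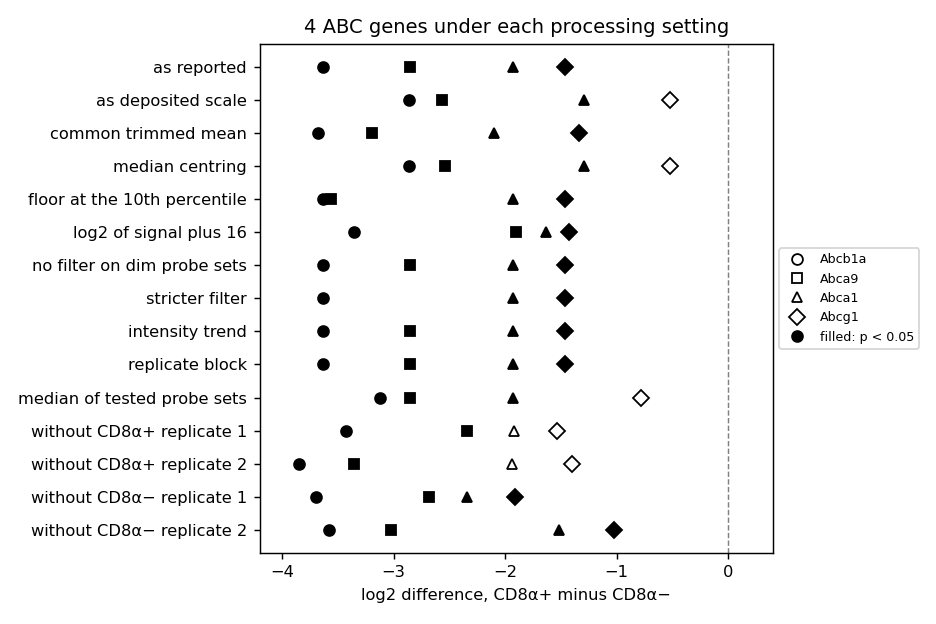
Log2 difference, CD8α+ minus CD8α− cells, of Abcb1a, Abca9, Abca1 and Abcg1 as reported and under each processing setting (rows); filled points have an unadjusted p under 0.05. All points lie below 0. Abcb1a stays between -3.85 and -2.86, and Abcg1 is open in 5 rows. In rows without a CD8α− replicate the fill rests on the spread of the CD8α+ pair and is not read.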

How the data were processed

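RNA of CD8α+ and CD8α− spleen dendritic cells was measured on 4 arrays, grouped by title. The authors deposited linear intensity values made with MAS5, per the submitters' processing notes; no source used here names a scaling target. Trimmed means of the deposited signals ran between 48.7 and 127, so the arrays were quantile normalized on the log2 scale.

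Of 45101 probe sets, 64 controls were left out, and 34945 had 1 symbol (932 several, 9160 none). All 45 ABC genes matched RefSeq by Entrez identifier. Values under a floor of 6.99 (the arrays' mean 25th percentile) were set to it before log2. Probe sets with a mean of at least 23.0, the median, were tested: 22519, of 10531 genes. A gene is represented by its brightest tested probe set, leaving out names in _x_at where another exists. At least-folds set the brighter mean against the higher of background and own signal. limma 3.58.1 in R 4.3.3 (lmFit, eBayes without trend, two-sided) used 2 residual and 2.48 prior degrees of freedom and was tested on simulated arrays. An exact permutation test of these arrays cannot give a p below 0.333 and was not used. The number of arrays limits the precision.

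Members, lists and markers were chosen with earlier results of these data known. Named were all tested ABC genes, all untested ones, genes of the partner lists at an unadjusted p under 0.05, and a few uncalled partners chosen after their values were seen. Alternatives changed the scaling, floor, filter, variance model, block, probe set rule and arrays. Tables and figures used Python 3.11.15, pandas 2.3.3 and matplotlib 3.10.9.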

Additional observations from a re-analysis of the deposited data

How the results depend on the processing

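The 23 tested genes were refitted under 14 settings. Direction was kept under every setting that measured them by 12 genes: Abca1, Abca3, Abca5, Abca8a, Abca9, Abcb1a, Abcb6, Abcc8, Abcf2, Abcg1, Abcg2 and Abcg3. The difference ran from -3.85 to -2.86 for Abcb1a and from -3.56 to -1.91 for Abca9. Where all arrays were kept, each stayed under an unadjusted p of 0.05 (limma p of Abcb1a from 3.58e-05 to 0.00422). Abca9 was not tested under the stricter filter. Over the 14 settings Abca1 missed this threshold in 2, each without 1 CD8α+ array, and Abcg1 in 5. A fit without 1 CD8α− array takes its spread from the closer CD8α+ pair, so it is not counted as a pass.

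Counts of ABC genes under an unadjusted p of 0.05 moved with the setting, and those of all tested genes are given beside them. On the deposited scale 2 of 23 were higher and 3 lower, against 1111 and 250 of 10506 genes. With median centring 2 of 23 were higher and 4 lower, against 3032 and 447 of 10502. A common trimmed mean gave 0 of 22 higher and 8 lower, against 627 and 1765 of 10579. A replicate block gave 0 of 23 higher and 7 lower, against 814 and 878 of 10531. Same-numbered arrays share only a number (correlation of their deviations 0.0311 over tested probe sets, 2 pairs), so the block is given here alone. Leaving out 1 array gave 0 to 3 higher and 3 to 7 lower, and 0 to 5 with an adjusted p under 0.05; the 5, without CD8α− replicate 1, were Abca1, Abca13, Abcb1a, Abcb6 and Abcg1. In that setting the lone CD8α− array is assumed to vary like the CD8α+ pair, whose arrays are closer, and 1311 of all genes passed. Adjusted calls numbered 1, Abcb1a, with median centring, with the stricter filter and with an intensity trend. Unadjusted calls over all genes were 3479 with median centring, 2829 with no filter, where 18193 genes were tested, and 553 to 4652 leaving out 1 array. With dim probe sets included, 10 ABC genes had probe sets that disagreed, against 5, and the share over all genes was not computed. The added genes were Abca1, Abca5, Abca9, Abcb10 and Abcc8, of which Abca1 and Abca9 are among the 4 called. The added Abca1 probe sets were above background on no array and that of Abca9 on 1 CD8α+ array only, so their signs say little.

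The median ABC gene stood at 0.24 on the deposited scale and with median centring and at -0.61 with a common trimmed mean, where the median of all genes was 0.67, 0.69 and -0.18. Relative to that shift it stood at -0.43 to -0.45 in these 3, against -0.27 as reported. Some genes that were not called had the other sign where the scaling moved all genes. On the deposited scale (and with median centring) Abca7 read 0.28 (0.28), Abcb10 0.61 (0.61), Abcb1b 0.15 (0.16), Abcc1 0.67 (0.67), Abcd3 0.24 (0.24), Abce1 0.71 (0.71), Abcf1 0.88 (0.88) and Abcf3 0.12 (0.12). Relative to the median of all genes, only Abca13, Abce1 and Abcf1 turned under these 2 scalings, and Abcc1, Abce1 and Abcf1 with a common trimmed mean. With a common trimmed mean Abca13 read -0.13 and Abcf1 0.068, and by the median of tested probe sets Abcc5 read -0.41, Abce1 0.36 and Abcf1 0.010.

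Leaving out 1 array moved Abca13 between -0.40 and 1.47, Abca7 between -0.81 and 0.29, Abcb10 between -0.96 and 0.69, Abcc4 between -0.031 and 3.25, Abcc5 between -0.045 and 0.68, Abce1 between -0.35 and 0.055 and Abcf3 between -1.33 and 0.047. Beyond construction, the cause of these changes was not tested.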
